A study of Mus musculus with 4 samples.

Results

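Chemokines and their receptors were followed through the growing femoral epiphysis of wild-type mice. Members were chosen by gene symbol: the Ccl, Cxcl, Cx3cl1 and Xcl1 ligands and the Ccr, Cxcr, Cx3cr1 and Xcr1 receptors, leaving out Cxcl12 and Cxcr4. The rule took 55 of the 55416 annotated genes, 38 ligands and 17 receptors, and used no measured value. Chemokines are small secreted proteins that steer moving cells by binding receptors coupled to inhibitory G proteins. Some are made all the time and place cells within a tissue, whereas others, among them Cxcl1, Ccl2 and Cxcl10, are switched on in stromal and myeloid cells by inflammatory cytokines through NF-kB or interferon signalling. In growing bone they are best known for drawing monocytes, osteoclast precursors and neutrophils.

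The samples were cells of the femoral epiphysis, the end of the thigh bone next to the knee or hip, from wild-type mice at postnatal days 7, 8, 10 and 12. Each day was 1 library of single cells, made by enzymatic digestion of the tissue at 37 °C, lysis of red cells, capture in droplets on a MobiNova-100 instrument and 3' tag sequencing. No allele, treatment or cell sort is given for any library, and how many mice went into each is not stated. The protocol text for the digestion step names bowel tumour tissue. With 1 library a day there was no replicate and no test, so a difference between days is a difference between 4 libraries, and intervals are 95% intervals of counting error only.

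Between 10729 and 18108 barcodes a library were deposited, with median UMIs (unique transcript molecules) per barcode of 2808, 3020, 7084 and 5504 at days 7, 8, 10 and 12. After a filter on genes, UMIs and mitochondrial share, 11309, 11464, 10028 and 16254 cells remained. Library pairs shared 72 to 126 cell barcodes, except days 10 and 12, which shared 282. Cells were put in classes by marker genes, here called gates, and 18 gates held at least 50 cells in 1 library or more. The cartilage label held for the early days: cells passing the chondrocyte gate (Col2a1, Acan, Sox9 and 7 others) were 87.6%, 61.9%, 3.75% and 20.6% of kept cells at days 7, 8, 10 and 12. Day 10 was mostly other cells, with 17.2% erythroid, 9.34% B-lineage and 29.9% ungated cells. A level in a whole library therefore mixes the number of cells of a type with the RNA each holds, and the 2 cannot be told apart there.

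The promoters of 4 members are shown because their genes behave in contrasting ways below: Cxcl1, Cxcl2 and Cxcl10 are inducible ligands of stromal and myeloid cells, and Ccl9 is the family's most counted gene. Each is the 250 bases before the annotated start from RefSeq (GRCm38.p6), 5′ to 3′ on the gene's own strand, with matches to the NF-kB consensus on either strand in capitals.
Cxcl1, chr5:90890995-90891244, plus strand: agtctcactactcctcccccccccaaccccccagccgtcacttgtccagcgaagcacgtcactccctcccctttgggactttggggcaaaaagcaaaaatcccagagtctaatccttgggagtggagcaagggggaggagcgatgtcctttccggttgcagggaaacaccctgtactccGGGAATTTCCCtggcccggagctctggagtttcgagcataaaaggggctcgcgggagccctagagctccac
Cxcl2, chr5:90903649-90903898, plus strand: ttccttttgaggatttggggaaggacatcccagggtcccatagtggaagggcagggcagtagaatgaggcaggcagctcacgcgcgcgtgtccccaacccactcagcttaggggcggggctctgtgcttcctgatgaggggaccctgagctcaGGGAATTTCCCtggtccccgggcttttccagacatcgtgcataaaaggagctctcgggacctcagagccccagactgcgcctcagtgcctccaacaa
Cxcl10, chr5:92348890-92349139, minus strand: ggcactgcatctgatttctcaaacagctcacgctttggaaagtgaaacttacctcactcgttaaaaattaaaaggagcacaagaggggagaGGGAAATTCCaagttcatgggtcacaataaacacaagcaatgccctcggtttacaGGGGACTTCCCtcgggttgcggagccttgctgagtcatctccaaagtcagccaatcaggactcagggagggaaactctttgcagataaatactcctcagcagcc
Ccl9, chr11:83578637-83578886, minus strand: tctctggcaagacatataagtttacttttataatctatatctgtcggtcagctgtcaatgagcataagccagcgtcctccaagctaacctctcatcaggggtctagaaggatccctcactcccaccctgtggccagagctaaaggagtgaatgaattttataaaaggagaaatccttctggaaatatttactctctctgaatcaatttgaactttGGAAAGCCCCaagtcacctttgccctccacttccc
The Cxcl1 and Cxcl2 promoters held the same run, starting 71 and 97 bases before the start, and overlapping matches on both strands were joined. The Cxcl3 promoter, not printed here, had a match starting 73 bases before its start. Cxcl10 had matches starting 159 and 104 bases before its start and a core of the ISRE, the interferon-response motif, 213 bases before it. Of 47 promoters for 40 matched members, read from 250 bases before to 50 after the start, 11 held the NF-kB consensus, which is 23.4%, against 8.46% of all 32851 promoters in the table. The other members with a match were Ccl1, Ccl20, Ccl27a, Ccr1, Ccr3 and Ccr6. That ISRE core on either strand was in 6.38% of member promoters, against 3.44% of all, the AP-1 letters TGANTCA in 19.1%, against 7.81%, and TATAAA on the sense strand in 19.1%, against 8.32%. Ccl2 and Ccl7 had no entry in the table. A match describes the letters and is not a bound site.

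Levels are given as CPM: a gene's UMIs summed over the cells of a library, or of a gate in a library, for every 1000000 UMIs of those cells. Chemokine and receptor transcripts together had 650.0, 1092, 720.7 and 805.5 CPM at days 7, 8, 10 and 12. Ligands had 602.4, 990.4, 568.8 and 595.3 CPM and receptors 47.6, 101.2, 151.9 and 210.2 CPM, so the receptors' share was higher in each later library while that of the ligands peaked at day 8. In all, 43 members (30 ligands and 13 receptors) had at least 100 UMIs over the 4 libraries, 9 had 2 to 55 UMIs, and Ccl21b, Ccl21d and Ccl27b had none. The last 3 are near-identical copies of Ccl21a and Ccl27a, and how the authors counted reads shared by such copies is not stated. Detection on every day held for 46 members. The 20 most counted members held 95.6% of the 305240 member UMIs, led by Ccl9 with 54222, Cxcl2 with 37401 and Ccr2 with 26247.

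A gate's mean level weights equally the libraries with at least 50 of its cells, and since 1 tag is counted per transcript, levels of different genes are on the same scale. Of the 43 members with at least 100 UMIs, 9 were highest in the macrophage gate, 8 in the dendritic gate, 4 in the T, NK or innate lymphoid gate, and 3 each in the osteoclast, B-lineage, mural and mast cell or basophil gates. The endothelial, monocyte, tendon or ligament, and stem and progenitor gates led for 2 each, and the neutrophil and reticular stromal gates for 1 each. None of the 43 had its highest mean in the chondrocyte gate, although Ccl20 did without day 8. The leads of Ccl20, Cxcl5, Ccr4, Ccl28, Cxcl13 and Cxcl17 are among those that rest on very few UMIs. The mast cell or basophil gate existed only at day 12, with 58 cells.

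**Figure D1:**
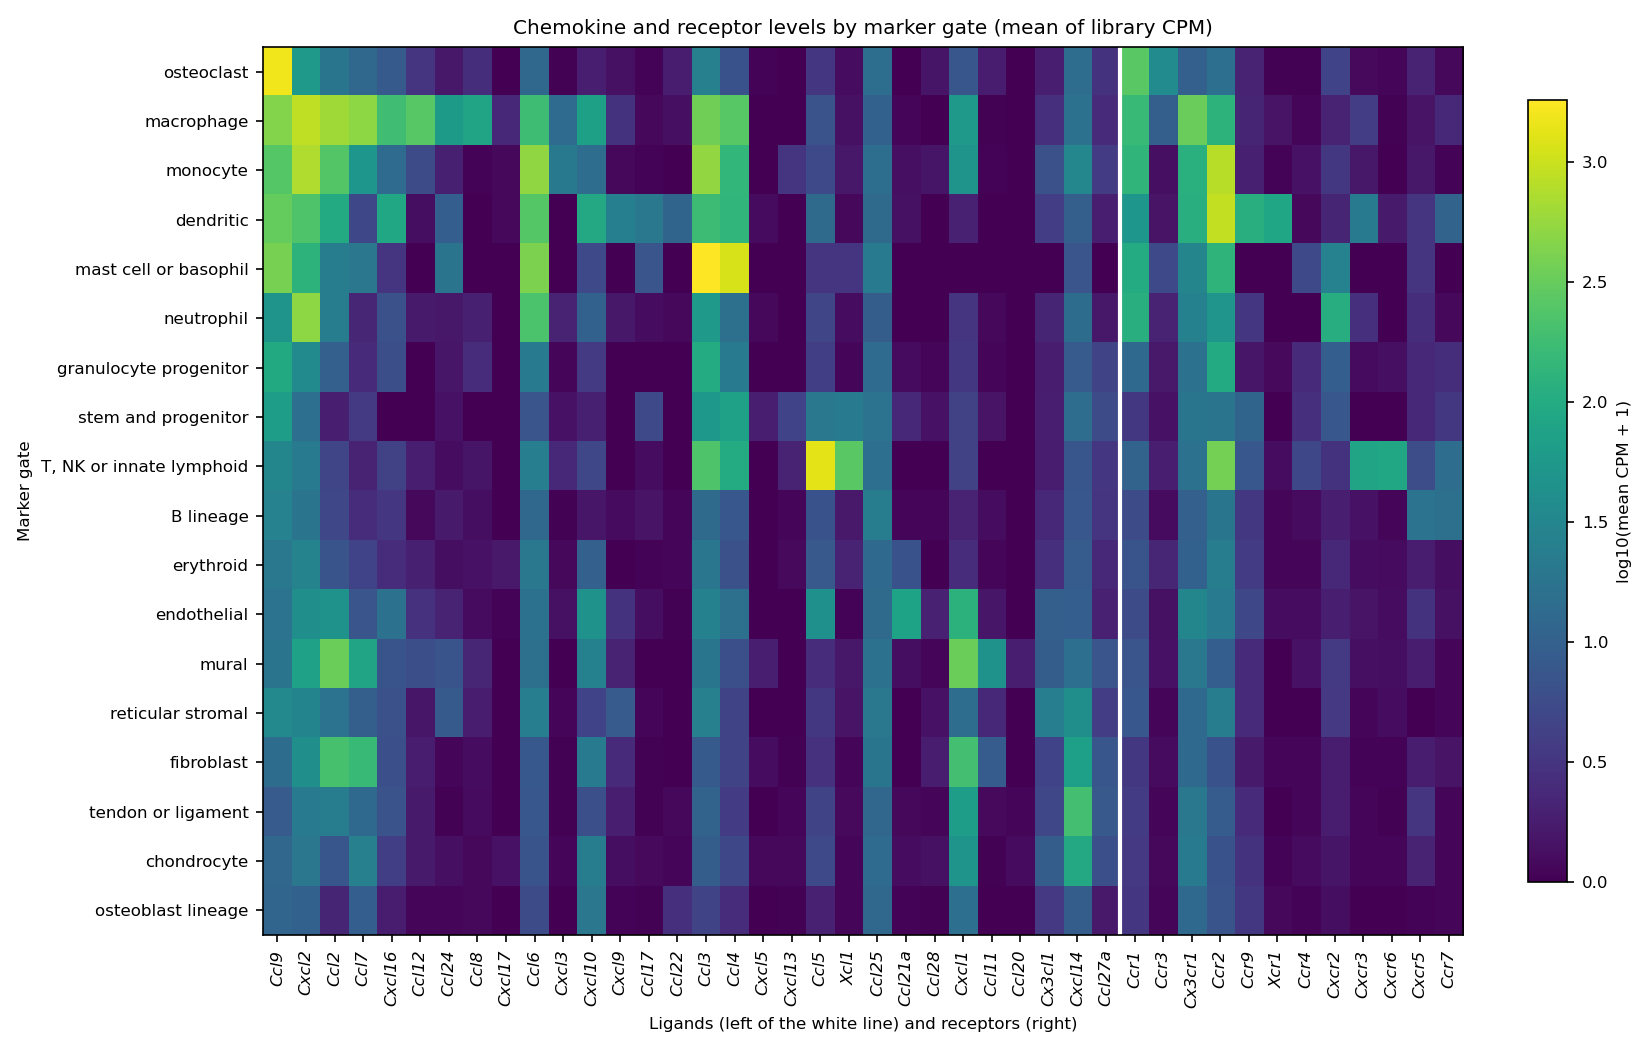
Heat map of 42 of the 43 members with at least 100 UMIs (columns, ligands left and receptors right of the white line) in 18 gates (rows), coloured by the base-10 logarithm of the mean CPM plus 1. The brightest cells are Ccl3 in the mast cell or basophil gate (1816 CPM), Ccl9 in the osteoclast gate (1524 CPM) and Ccl5 in the T, NK or innate lymphoid gate (1322 CPM).

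Ccl9, a rodent ligand of Ccr1 that osteoclasts are known to secrete, was the family's leading gene. In the osteoclast gate (Acp5, Ctsk and 6 other markers) it had 1683, 1485 and 1404 CPM at days 8, 10 and 12, against 373.7 to 547.9 CPM in the macrophage gate over the 4 days, and the gates did not overlap. That gate held 43.4%, 43.2% and 65.0% of the library's Ccl9 UMIs at days 8, 10 and 12, with 2.01%, 2.87% and 10.2% of all UMIs. When every cell was thinned to 1000 UMIs, 63.5% of osteoclast-gate cells had a Ccl9 UMI at day 12, against 3.22% in the chondrocyte gate, and the unthinned shares were 93.1% and 15.6% at median depths of 15307 and 9540.5 UMIs. Ccl6, the related myeloid chemokine of rodents, was highest in the monocyte gate with 305.8, 379.3 and 870.2 CPM at days 8, 10 and 12.

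Macrophages led for most of the monocyte-attracting ligands. Ccl2, the main ligand of Ccr2, had 773.8, 890.7, 588.6 and 200.5 CPM in the macrophage gate (C1qa, C1qb, C1qc and 6 others) at days 7, 8, 10 and 12. Its neighbour Ccl7, which also binds Ccr2, had 688.8, 869.3, 373.2 and 121.5 CPM there. Both were highest at day 8 and lowest at day 12, and at day 7, with 67 cells, a single cell held 34.8% of the Ccl2 and 40.0% of the Ccl7 UMIs. Ccl12, a further mouse ligand of Ccr2, had 396.3, 513.2, 74.1 and 50.2 CPM in this gate, which held 91.3%, 91.1%, 83.8% and 75.2% of its UMIs. Ccl8, a macrophage ligand of Ccr8 in the mouse, had 66.1, 75.6, 92.6 and 78.7 CPM, with 61.9% of its day 7 and 47.1% of its day 10 UMIs in a single cell. Unlike Ccl2, Ccl7 and Ccl12, it was not lower at day 12 than at day 7. Ccl24, an eosinophil attractant, had 31.5, 17.9, 97.7 and 86.4 CPM, and Cxcl16, a membrane-bound ligand of Cxcr6, had 226.5, 211.4, 114.6 and 176.0 CPM. Cxcl17 also had its highest mean here, at 1.32 CPM.

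Cxcl2, the neutrophil attractant that binds Cxcr2, was spread over the myeloid gates. It had 762.7, 1625, 829.4 and 281.6 CPM in macrophages at days 7, 8, 10 and 12. In monocytes it had 1366, 594.6 and 256.4 CPM at days 8, 10 and 12, and in neutrophils 685.8 and 323.5 CPM at days 10 and 12. All 3 gates were lowest at day 12. Cxcl3, its close relative, was highest in monocytes at a mean of 19.6 CPM, from 0 to 58.6 CPM, and without day 8 macrophages led. Ccl3 and Ccl4 are attractants of monocytes and T cells that overlap in the RefSeq annotation. They were highest in the mast cell or basophil gate at day 12 with 1816 and 1161 CPM, from 58 cells. A gate of at least 4 markers put monocytes and macrophages first, but gates under 50 cells were not ranked. Below the mast cell or basophil gate, Ccl3 had 393.7, 375.7 and 826.5 CPM in monocytes at days 8, 10 and 12. Ccl4 had 316.1, 595.6, 74.1 and 36.6 CPM in macrophages at days 7, 8, 10 and 12.

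Lymphoid and dendritic cells led for a set of genes, of which Ccl5, Xcl1 and Xcr1 were sharply placed. Ccl5, a T cell attractant made by cytotoxic lymphocytes, had 1360 and 1284 CPM in the T, NK or innate lymphoid gate at days 10 and 12, with 82.6% and 64.7% of its UMIs there. Xcl1, made by NK and T cells, had 325.6 and 198 CPM in the same gate, with 89.8% and 67.0% of its UMIs. Its receptor Xcr1, which marks cross-presenting dendritic cells, had 78.7 and 82.3 CPM in the dendritic gate at days 10 and 12, with 92.0% and 84.5% of its UMIs. Ligand and receptor thus peaked in different gates, 12.6 and 171 times above the mean of the next gate. Ccl17 and Ccl22, ligands of Ccr4 made by mature dendritic cells, averaged 19.4 and 10.1 CPM in the dendritic gate, and 92.9% of the Ccl17 UMIs at day 10 came from a single cell. Cxcl9 and Cxcl10, interferon-induced ligands of Cxcr3, averaged 24.5 and 90.4 CPM there. A single cell, however, gave 93 Cxcl9 UMIs and 83% of the Cxcl10 UMIs at day 10. Without that library reticular stromal cells led for Cxcl9 and macrophages for Cxcl10. Osteoblast-lineage cells led for Ccl22 without day 12. Stem and progenitor cells led for Ccl17 without the 6% of cells with the most UMIs.

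**Figure D2:**
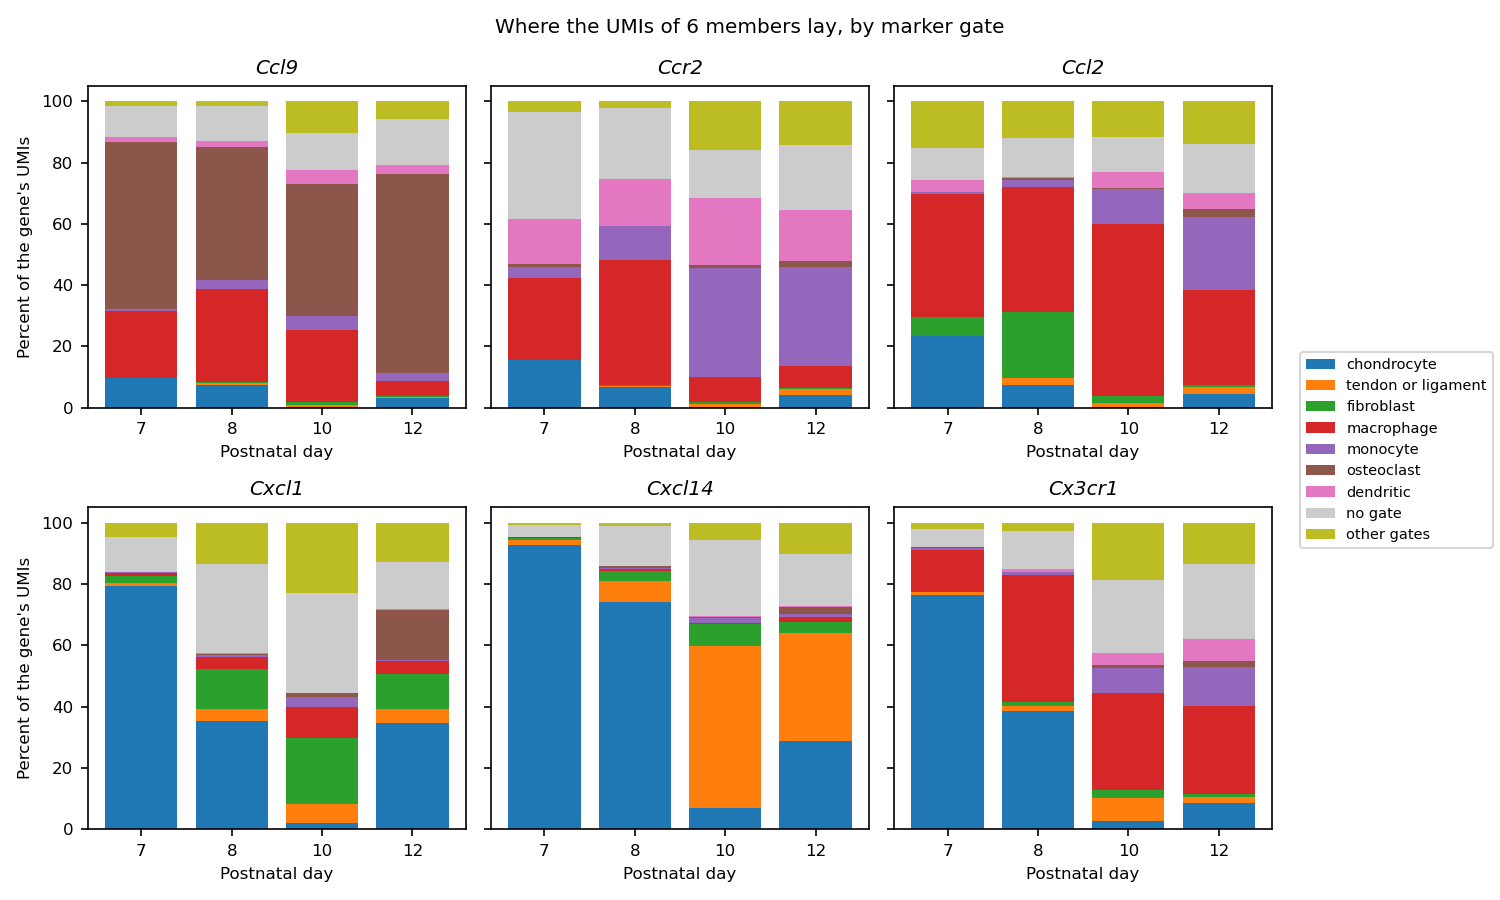
Stacked bars of the percentage of each library's UMIs of Ccl9, Ccr2, Ccl2, Cxcl1, Cxcl14 and Cx3cr1 that came from each gate, at days 7, 8, 10 and 12. Osteoclasts gave 65.0% of Ccl9 at day 12, and chondrocytes gave 76.6% of Cx3cr1 at day 7, when they held 86.2% of all UMIs.

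Stromal cells had their own ligands. Cxcl14, a homeostatic chemokine, had 202, 167.9, 188.2 and 217.8 CPM in the tendon or ligament gate (Tnmd, Scx, Mkx and 5 others) at days 7, 8, 10 and 12. In chondrocytes it had 140.1, 111.0, 63.1 and 52.2 CPM, and in fibroblasts 83.6, 76.4, 58.2 and 57.0 CPM. The tendon gate was above both others on every day, and its levels lay between 167.9 and 217.8 CPM. The day 7 interval, from 119 cells, was wide, at 161 to 250 CPM, and held the level of every other day. Cxcl1, the neutrophil attractant that binds Cxcr2, was highest in the mural gate (Rgs5, Kcnj8, Abcc9 and 5 others) with 952.7, 57.4 and 11.2 CPM at days 8, 10 and 12, although without day 8 fibroblasts led. Ccl2 in that gate had 968.2, 35.9 and 15.3 CPM, also highest at day 8. Ccl11, the eosinophil attractant eotaxin, was highest in mural cells as well, with 69.7, 45.2 and 19.4 CPM. Ccl20, a ligand of Ccr6, had its highest mean there at 0.861 CPM. That mean came from 0 to 2.58 CPM, below the mural floor of 3 UMIs at day 8 (7.75 CPM), and without day 8 chondrocytes led. Cx3cl1, a membrane-anchored chemokine, was highest in reticular stromal cells (Lepr, Adipoq and 6 others) with 28.6 and 19.4 CPM at days 10 and 12. Ccl27a led in the tendon gate at a mean of 7.15 CPM, but it overlaps Il11ra1 in RefSeq and strand use in counting is not stated.

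Ccl21a, the lymphatic ligand of Ccr7, was confined to very few cells. In the endothelial gate it had 0, 237.1, 56.1 and 15.2 CPM at days 7, 8, 10 and 12. It was seen in 2.55%, 0.996% and 0.507% of endothelial-gate cells at days 8, 10 and 12 (median depth 3737, 7823 and 7326 UMIs), against 0.268%, 0.266% and 0.179% of chondrocyte-gate cells (3295, 16789.5 and 9540.5 UMIs), and a single endothelial cell held 31.7%, 47.2% and 72.4% of the gate's Ccl21a UMIs. Its level by day therefore follows a handful of cells. Ccl28, an epithelial chemokine, had its highest mean in the endothelial gate at 0.963 CPM, and Cxcl5 and Cxcl13 had theirs in the stem and progenitor gate at 0.872 and 3.49 CPM. The Cxcl5 mean came from 0 and 1.74 CPM, the latter below that gate's floor of 3 UMIs at day 10 (2.62 CPM). Without day 10 mural cells led for Cxcl5. Ccl25, best known from thymus and gut, was nearly level over gates, with means of 8.14 to 22.5 CPM and the highest in B-lineage cells.

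Receptors followed the blood lineages. Ccr2, which brings monocytes out of marrow, had 185.4, 717.4 and 1510 CPM in the monocyte gate (Ly6c2, F13a1, Ms4a6c and 5 others) at days 8, 10 and 12, and 842.9 and 983.3 CPM in the dendritic gate at days 10 and 12. The 2 gates overlapped, although the dendritic mean of 913.1 CPM was above the monocyte mean of 804.3 CPM. Ptprc, a pan-leukocyte gene, was also higher in each later monocyte gate, with 315.6, 584.7 and 1287 CPM at days 8, 10 and 12. The monocyte marker list, which includes Fn1 and Vcan, averaged 8169 CPM in that gate and 5488 CPM in fibroblasts. The part of gate purity in the monocyte levels by day was not tested. Cx3cr1, the receptor of resident macrophages, had 278.4, 415.5, 276.2 and 347.3 CPM in the macrophage gate at days 7, 8, 10 and 12, and no other gate's libraries reached that range. Ccr1 had 317, 249.4 and 219.6 CPM in osteoclasts at days 8, 10 and 12, above the macrophage range of 103.2 to 199.7 CPM over the 4 days. Ccr3, the eosinophil receptor that osteoclasts are also known to carry, had 26.3, 55.8 and 26.2 CPM in osteoclasts. Cxcr2 had 76.6 and 138.1 CPM in neutrophils at days 10 and 12. Cxcr3 had 87.4 and 69.6 CPM and Cxcr6 94.6 and 83.8 CPM in the T, NK or innate lymphoid gate, the gate of both receptors' textbook cells. Cxcr5 and Ccr7, which guide lymphocytes to follicles and T zones, led in B-lineage cells at means of 16.5 and 15.2 CPM. Ccr9, known from plasmacytoid dendritic cells, had 174.2 and 50.0 CPM in the dendritic gate. Ccr4 led at 4.18 CPM in the mast cell or basophil gate, from 58 cells at day 12. With a gate of at least 4 markers, T, NK or innate lymphoid cells led for Ccr4, but gates under 50 cells were not ranked.

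Receptors and ligands of monocytes, dendritic cells, lymphocytes, neutrophils and osteoclasts were among the members higher at day 12 than at day 7, and Cxcl1, Cxcl10 and Ccl7 were among those lower. A member is called higher or lower at 2-fold or more with at least 20 UMIs over the pair, 1 UMI being added to each sum. Between day 12 and day 7, 19 of 47 members counted were higher, against 26.2% of all 21622 genes counted, and 14 were lower, against 22.4%. With day 8 in place of day 7, 11 of 48 were higher, against 17.5% of genes, and 21 were lower, against 23%. The members' median log2 ratio was 0.24 relative to day 7, against 0.21 over all genes, but -0.62 relative to day 8, against 0.08 over all genes. Day 8 was different: 22 of 43 were higher than at day 7, against 7.83% of genes, and none was lower, against 2.47%. The median log2 ratio of day 8 over day 7 was 1.10 for members and 0.12 for all genes. Within gates, 6 of 31 members were higher and 3 lower in chondrocytes, against 4.23% and 2.08% of genes. Macrophages had 4 of 22 higher and 1 lower, against 4.01% and 3.54%. Endothelial cells had 2 of 10 higher and 3 lower, against 3.71% and 3.84%. Fibroblasts had 2 of 9 and tendon cells 3 of 8 higher, against 4.12% and 3.48%, and none lower. The macrophage gate held 0.592% of kept cells at day 7 and 2.88% at day 8.

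**Figure D3:**
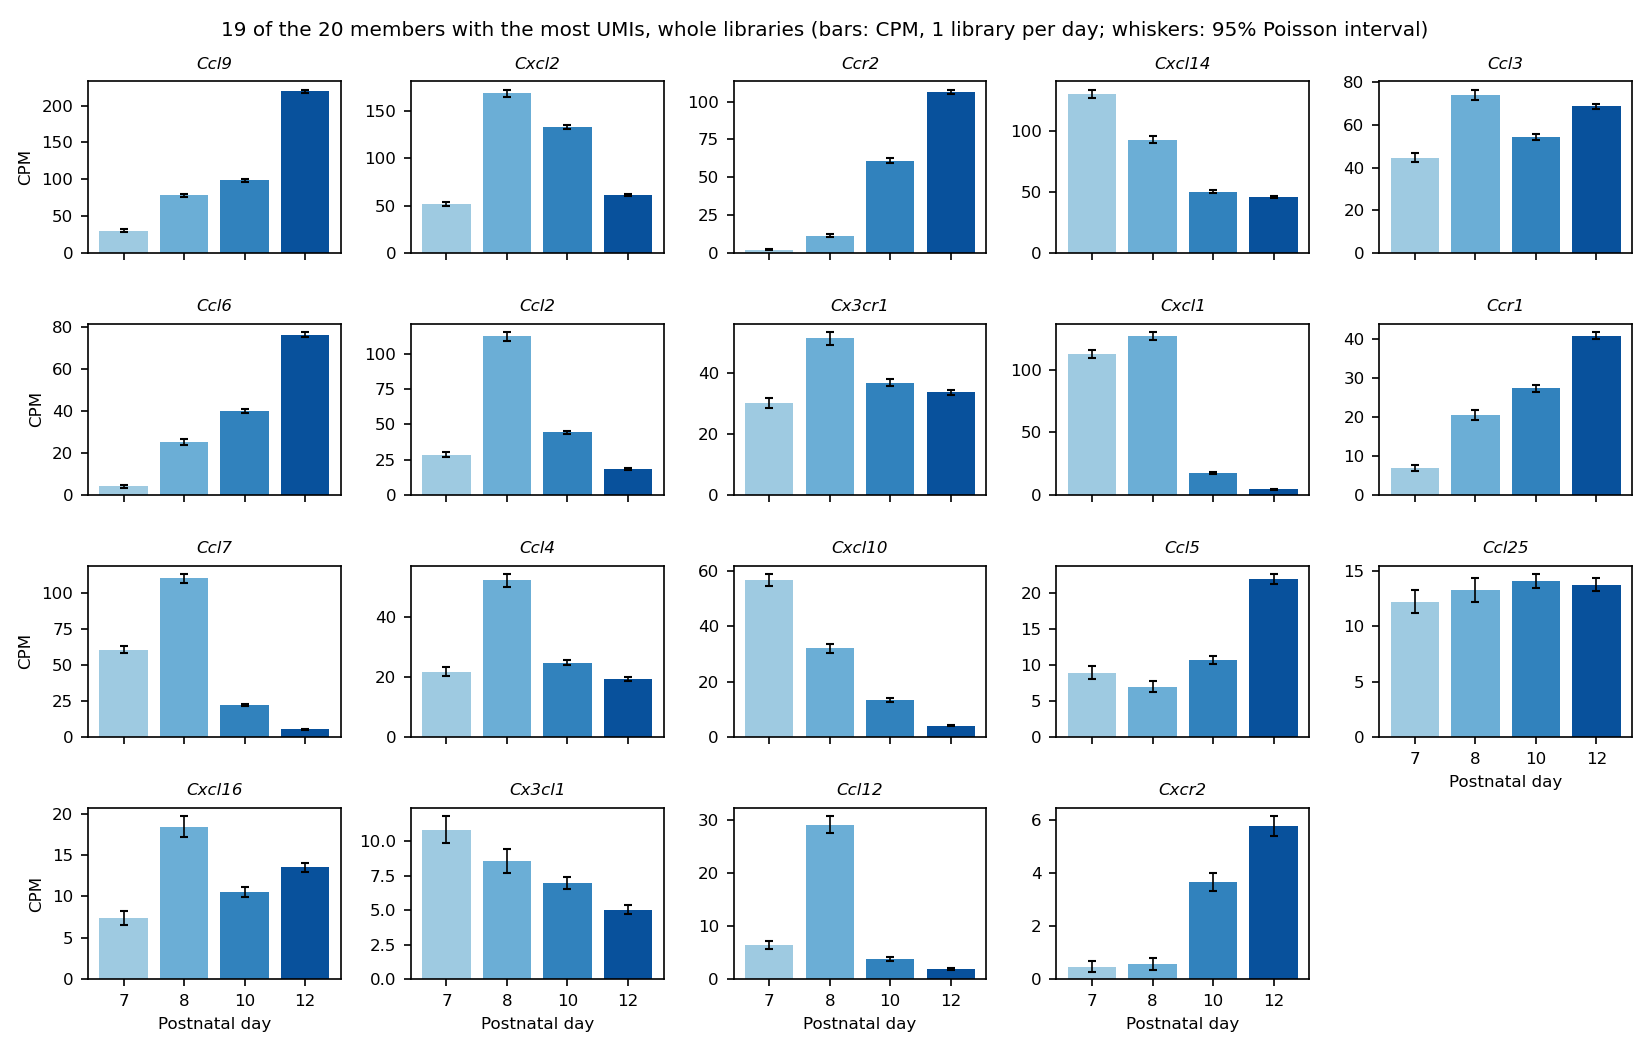
Bars of whole-library CPM at days 7, 8, 10 and 12 for 19 of the 20 most counted members, with 95% Poisson whiskers of counting error. Ccl9 and Ccr2 are highest at day 12 (219.6 and 106.3 CPM), and Cxcl1, Ccl7 and Ccl2 at day 8 (127.4, 110.0 and 112.5 CPM).

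Among the members that were higher, Ccr2 had 1.94, 11.4, 61.0 and 106.3 CPM at days 7, 8, 10 and 12, which is 54.3-fold higher at day 12 than at day 7 (interval 44.3 to 69.0). Xcr1 had 0.0233, 0.0882, 1.34 and 1.78 CPM, a 38.2-fold difference that rests on 1 UMI at day 7. Xcl1 had 0.117, 0.331, 2.33 and 3.26 CPM and was 23.3-fold higher. These are genes of monocytes, dendritic cells and innate lymphocytes, whose gates were nearly empty at day 7. Ccl6 had 3.99, 25.1, 40.0 and 76.2 CPM and was 19.0-fold higher. Cxcr3 had 0.0699, 0.198, 1.42 and 1.68 CPM and was 18.1-fold higher, and Cxcr2 had 0.443, 0.551, 3.65 and 5.78 CPM and was 12.4-fold higher. Ccl9 had 30.2, 77.9, 98.5 and 219.6 CPM (7.27-fold), while the osteoclast gate held 0.265%, 0.776%, 1.72% and 5.89% of cells. Ccr1 had 6.78, 20.5, 27.4 and 40.9 CPM (6.01-fold). Ccl5 had 8.93, 6.92, 10.6 and 21.9 CPM (2.44-fold). Ccl21a, with 0, 8.47, 2.91 and 1.19 CPM, was at least 17.0-fold higher at day 12 than a floor of 3 UMIs at day 7, but its highest library was day 8.

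The members that were lower at day 12 were ligands. Cxcl1 had 112.6, 127.4, 17.5 and 4.56 CPM at days 7, 8, 10 and 12 and was 24.7-fold lower at day 12 than at day 7. Cxcl10 had 56.7, 32.1, 13.4 and 4.13 CPM and was 13.7-fold lower. Ccl7 had 60.4, 110.0, 22.0 and 5.19 CPM and was 11.6-fold lower. For these 3, days 7 and 8 lay above days 10 and 12 without overlap. Ccl20 had 1.68, 1.39, 0 and 0.006 CPM, from 72 UMIs at day 7 and 1 at day 12. Cxcl5 had 0.699, 2.98, 0.685 and 0.018 CPM, and Cxcl15, with 48 UMIs in all, had 0.466, 0.309, 0.0616 and 0.036 CPM. Ccl12 had 6.44, 29.1, 3.75 and 1.88 CPM, and was higher, not lower, at day 12 (2.35-fold) once the 6% of cells with the most UMIs were left out. Cxcl14 had 130.0, 92.6, 50.1 and 45.8 CPM, and Cx3cl1 had 10.8, 8.56, 6.96 and 5.03 CPM.

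Several abundant members stood at day 12 within 2-fold of day 7 but moved between them. Cxcl2 had 51.7, 169.2, 133.2 and 61.3 CPM at days 7, 8, 10 and 12. Ccl2 had 28.6, 112.5, 44.4 and 18.2 CPM. Ccl4 had 21.8, 52.2, 24.8 and 19.4 CPM. These 3 inducible ligands had their highest library at day 8, as did Ccl3 with 44.7, 74.1, 54.4 and 68.8 CPM. Cx3cr1 had 30.1, 51.6, 37.0 and 33.7 CPM, and Cxcl16 had 7.32, 18.4, 10.5 and 13.5 CPM. Ccl25 was the flattest of the abundant members, with 12.2, 13.3, 14.1 and 13.7 CPM.

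Within cell types, where the mix of cells matters less, Cxcl1 and Cxcl10 were lower at day 12 than at day 7 in the chondrocyte, tendon or ligament, fibroblast and endothelial gates, although Cxcl10 had only 3 UMIs in tendon cells and 11 in fibroblasts at day 7. Cxcl2 did not share this: it had 19.2 CPM at day 12 and 20.03 CPM at day 7 in chondrocytes, and 26.9 and 10.9 CPM in endothelial cells. In tendon cells Cxcl2 was called higher, with 11.7 CPM at day 12 and 2.38 CPM, from 1 UMI, at day 7, but it was 0.225-fold relative to day 8. In chondrocytes 7 of 31 members were higher at day 12 than at day 7, against 16.3% of genes, and 15 were lower, against 20.5%, with a median log2 ratio of -0.86 for members and 0.15 for all genes. Cxcl1 had 103.7, 72.4, 6.67 and 6.28 CPM in chondrocytes at days 7, 8, 10 and 12. Ccl7 had 50.9, 48.3, 2.09 and 0.454 CPM there, and Cxcl10 had 58.2, 24.6, 2.5 and 4.94 CPM. All 3 had both early libraries above both late ones. Cx3cr1 had 26.8, 32.0, 17.8 and 11.3 CPM, and Ccl2, at 3.27 CPM at day 12 and 7.71 CPM at day 7, was 0.426-fold. Cxcl14 in chondrocytes was 0.373-fold at day 12 relative to day 7, and Ccl20, Cxcr5, Ccr9 and Ccl27a were also lower. Cxcr5 overlaps Bcl9l and Ccr9 overlaps Gm17021 in RefSeq, and strand use in counting is not stated.

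**Figure D4:**
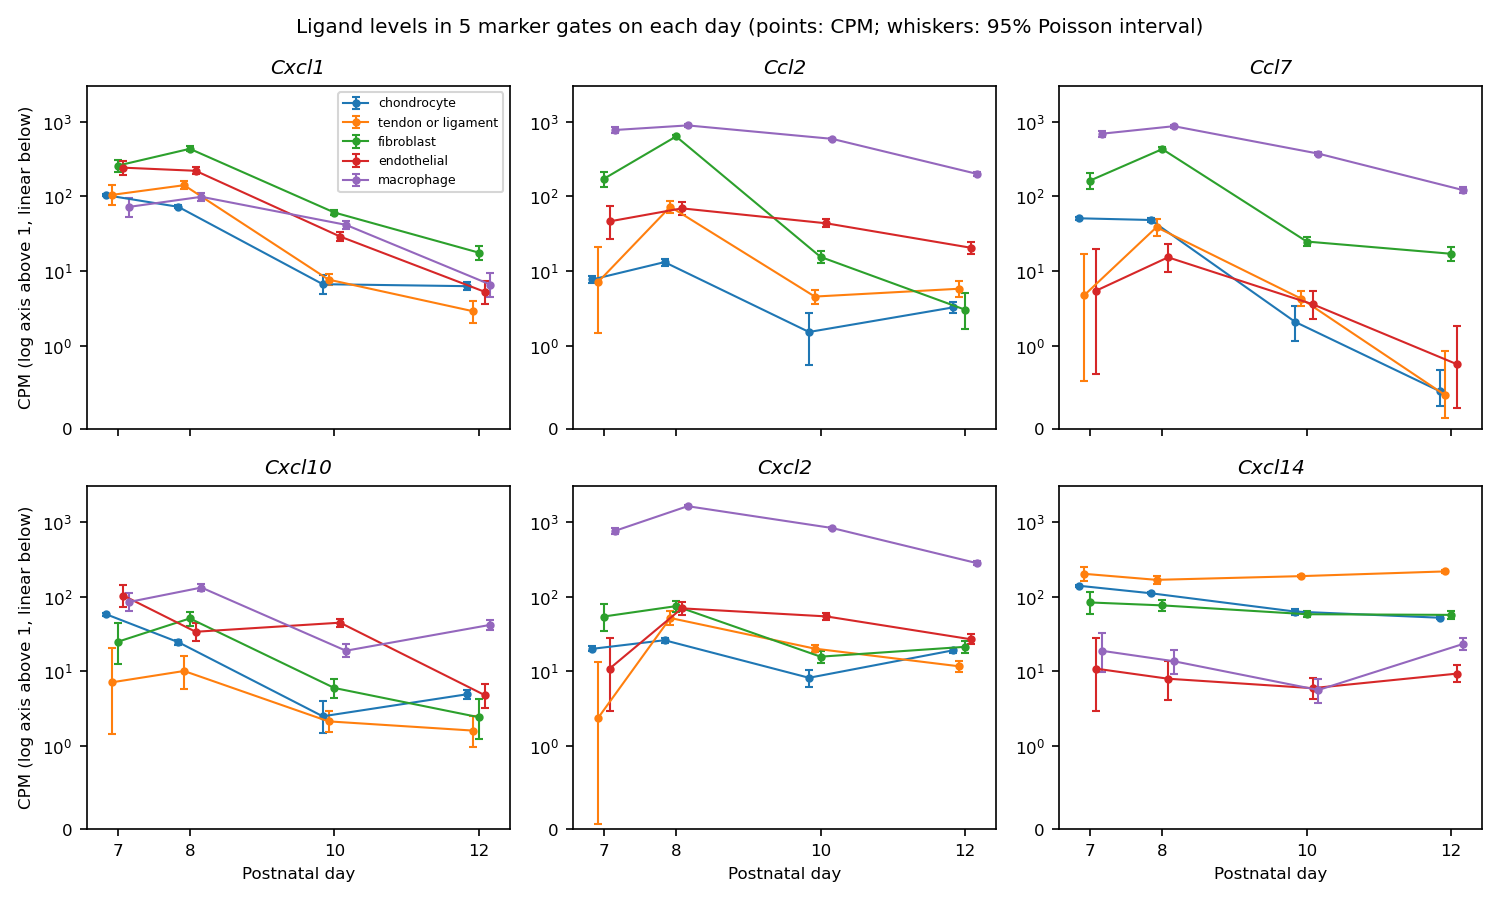
CPM of Cxcl1, Ccl2, Ccl7, Cxcl10, Cxcl2 and Cxcl14 at days 7, 8, 10 and 12 (symmetric log axis) in the chondrocyte, tendon or ligament, fibroblast, endothelial and macrophage gates, with 95% Poisson whiskers. The lines of Cxcl1 end at 2.90 to 17.6 CPM at day 12 in all 5 gates, against 72.3 to 257.6 CPM at day 7, whereas Cxcl14 in the tendon or ligament gate stays between 167.9 and 217.8 CPM.

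Fibroblasts (Pi16, Dpt, Clec3b and 6 others) had more Cxcl1 and Ccl7 than chondrocytes on every day. Cxcl10 was lower than in chondrocytes at days 7 and 12, and Ccl2 was lower at day 12. Ccl2 in fibroblasts had 171.7, 633.5, 15.5 and 3.04 CPM at days 7, 8, 10 and 12. Cxcl1 there had 257.6, 433.0, 60.8 and 17.6 CPM, and Ccl7 had 162.7, 429.0, 24.8 and 17.0 CPM. Day 8 was the highest library and day 12 the lowest for each of these. Cxcl10 there had 2.43 CPM at day 12 and 24.9 CPM at day 7, and Cxcl2 21.3 CPM at day 12 and 54.2 CPM at day 7. Of 18 members counted in fibroblasts, 6 were higher, against 13.9% of genes, and 6 lower, against 9.01%, with a median log2 ratio of -0.38 for members and 0.15 for all genes. Of the 6 higher, 4 had no UMI at day 7, and 2 of those, Ccr2 and Ccl6, stayed past 2-fold against a floor of 3 UMIs.

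Endothelial cells (Pecam1, Cdh5, Kdr and 7 others) had 242.1, 219.8, 29.0 and 5.29 CPM of Cxcl1 at days 7, 8, 10 and 12. Cxcl10 there had 103.4, 33.9, 44.8 and 4.82 CPM, with day 12 again lowest. Ccl2 was at 20.5 CPM at day 12, against 46.2 CPM at day 7. Ccl5 had 3.27 CPM at day 12 and 163.2 CPM at day 7, but all 60 of its day 7 UMIs were in 1 cell of 52. In this gate 7 of 18 members were higher, against 18.3% of genes, and 4 were lower, against 9.6%, with a median of 0.73 for members and 0.22 for all genes. Of the 7 higher, 5 had no UMI at day 7, and 3 of those, Ccr2, Ccl9 and Ccl4, stayed past 2-fold against the floor. Tendon cells had 104.6, 141.1, 7.69 and 2.90 CPM of Cxcl1 at days 7, 8, 10 and 12. There 4 of 19 members were higher, against 6.36% of genes, and 5 were lower, against 21.3%, with a median of -0.18 for members and -0.28 for all genes. With members at 0 UMIs set to their bound, that median was 0.11 for members and -0.19 for all genes.

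The 3 inducible ligands were not spread alike over chondrocytes. At day 7 the 99 cells with the most Ccl7 UMIs, 1 in 100 of the gate, held 80.0% of its UMIs, and 384 of 9902 cells had any. For Cxcl10 the top 99 cells held 52.1% and for Cxcl1 37.8%, in 712 and 1272 cells with a UMI. Cxcl14 was the most even, with 15% in the top 99 and 2788 cells with a UMI. To ask whether the ligands shared cells, each cell was thinned to 1000 UMIs. Of 640 chondrocyte-gate cells with a Cxcl1 UMI at day 7, 8.75% also had Cxcl10 (interval 6.68 to 11.2), against 3.17% of cells without Cxcl1 (2.83 to 3.55). For Ccl7 the shares were 2.66% (1.55 to 4.22) with Cxcl1 and 1.95% (1.68 to 2.26) without, and the intervals overlapped. Cxcl14, at 14.5% (11.9 to 17.5) and 12.0% (11.4 to 12.7), overlapped as well. At day 8, Cxcl10 again did not overlap, at 4.49% (2.59 to 7.20) and 1.51% (1.24 to 1.84). Of chondrocyte-gate cells with a Ccl2 UMI, 18.5% (9.25 to 31.4) had Ccl7 at day 7, against 1.91% (1.65 to 2.20) of those without, but at day 8 the shares were 2.88% (0.599 to 8.20) and 2.35% (2.01 to 2.73) and overlapped. Of day 8 fibroblasts with a Ccl2 UMI, 40.3% had Ccl7 (28.5 to 53.0), against 9.62% of those without (7.00 to 12.8). With Cxcl1 in place of Ccl2 the fibroblast shares were 24.7% (16.2 to 35.0) and 11.4% (8.46 to 14.9). In macrophages at day 8 the Ccl2 and Ccl7 shares were 63.7% (53.6 to 73.0) and 14.9% (10.6 to 20.2), and Ccl3 and Ccl4 behaved likewise, with 46.2% (35.8 to 56.9) of Ccl3 cells having Ccl4, against 15.2% (10.9 to 20.4) of the rest. At day 12 the Ccl3 and Ccl4 shares overlapped, at 10.9% (4.51 to 21.2) and 3.77% (2.17 to 6.06). Cells of 1 library are not replicates, so these intervals describe counting within that library.

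Cxcl1, Ccl2, Ccl7 and Cxcl10 were lower at day 12 in macrophages as well. Of 20 members counted there, 2 were higher at day 12 than at day 7, against 18.5% of genes, and 9 were lower, against 7% of genes, with a median log2 ratio of -0.74 for members and 0.28 for all genes. The 9 were Cxcl1, Ccl4, Ccl12, Ccl7, Ccr3, Ccl2, Cxcl2, Ccl3 and Cxcl10. Ccl4 had 36.6 CPM at day 12 and 316.1 CPM at day 7, Ccl3 196.9 CPM at day 12 and 440.3 CPM at day 7, and Cxcl10 41.9 CPM at day 12 and 84.9 CPM at day 7. The 2 that were higher were Ccr2, with 269.4 CPM at day 12 and 34.6 CPM at day 7, and Ccl24, with 86.4 and 31.5 CPM on those days.

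Lists of cytokine and stress genes were set beside these ligands. Of the NF-kB and inducer list (20 genes), 10 of 16 counted were lower in chondrocytes at day 12 than at day 7 and 2 were higher, with a median log2 ratio of -1.16, against 20.5% lower, 16.3% higher and a median of 0.15 over all genes. In fibroblasts 5 of 15 were lower and 3 higher (median -0.30), against 9.01% and 13.9% of genes. In endothelial cells 6 of 16 were lower and 3 higher (-0.66), against 9.6% and 18.3%, and in macrophages 4 of 16 were lower and 1 higher (-0.24), against 7% and 18.5%. Tendon cells had 4 of 14 lower and 3 higher (-0.34), against 21.3% and 6.36%, and whole libraries 6 of 17 and 1 (-0.25), against 22.4% and 26.2%. Il6, an NF-kB target, had 348.2, 413.8, 29.6 and 8.86 CPM in endothelial cells at days 7, 8, 10 and 12. Icam1, the adhesion molecule, had 655.5, 546.0, 151.3 and 77.7 CPM there. Il1b, the inducing cytokine, had 341.3, 552.1, 22.9 and 39.6 CPM in macrophages, so the 2 early libraries were the higher ones for all 3 genes. Of the dissociation stress list (14 immediate-early and heat-shock genes), 13 of 14 were lower at day 12 than at day 7 in whole libraries, against 22.4% of genes, with a median of -1.90. Its summed level was 13942, 15168, 7822 and 6223 CPM in chondrocytes, 10311, 12459, 7474 and 2994 CPM in fibroblasts, 7934, 9235, 6816 and 2964 CPM in endothelial cells and 6330, 9012, 10154 and 5276 CPM in macrophages at days 7, 8, 10 and 12. The sum was highest at day 8 in chondrocytes, fibroblasts and endothelial cells and at day 10 in macrophages, and lowest at day 12 in each. In macrophages Ccl2, Ccl7, Cxcl2 and Ccl4 were highest at day 8 and lowest at day 12. The part of enzymatic digestion in these ligand levels was not tested.

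The remaining lists gave the following counts for day 12 over day 7 in whole libraries, beside 26.2% higher, 22.4% lower and a median log2 ratio of 0.21 over all genes. Receptor signalling and desensitization genes, such as Rac2 and Dock2 of leukocytes, were higher in 16 of 20 and lower in none, with a median of 2.16. Interferon inducers of Cxcl9 to Cxcl11 were higher in 6 of 8 and lower in none (1.47), although in endothelial cells 4 of 7 were lower, against 9.6% of genes, and none higher (-1.25). Atypical receptors were higher in 3 of 6 and lower in none (0.91). Ackr1, the endothelial chemokine scavenger, had 57.1, 34.5, 62.9 and 38.4 CPM in endothelial cells at days 7, 8, 10 and 12. The platelet ligands Pf4 and Ppbp were within 2-fold (0.28), the excluded pair Cxcl12 and Cxcr4 were both higher (2.95), and the 4 hemoglobin genes were all higher (3.42).

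Ccr2, Ccl6 and Ccl9, best known from myeloid cells, were higher at day 12 than at day 7 in the chondrocyte, tendon, fibroblast and endothelial gates. In chondrocytes Ccr2 had 17.0 CPM at day 12 and 0.352 CPM at day 7, Ccl6 16.2 and 0.541 CPM, Ccr1 5.90 and 0.514 CPM, and Ccl9 26.2 and 3.41 CPM on those days. Cxcr2, Ccl24 and Ccl3 completed the 7. Ccr2 and Ccl9 in tendon cells had 27.2 and 17.7 CPM at day 12 and no UMI at day 7, and endothelial cells had 56.0 and 40.1 CPM at day 12 and none at day 7. Ccl6 was at 19.5 CPM in tendon, 22.7 CPM in fibroblast and 41.2 CPM in endothelial cells at day 12, with at most 1 UMI in each at day 7. Ptprc, the pan-leukocyte gene, was higher in the same gates, with 1.89, 6.06, 10.4 and 41.0 CPM in chondrocytes and 0, 5.31, 43.4 and 91.4 CPM in endothelial cells at days 7, 8, 10 and 12. S100a8, a neutrophil gene, had 2.60, 9.16, 128.9 and 124.7 CPM in chondrocytes.

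The ratio of a member to markers of a source gate was set beside these levels. The markers were of osteoclasts for Ccl9, of monocytes for Ccr2 and Ccl6, and of macrophages for the other members below. That gate was not the leading one for Ccr2, Ccl3, Ccl4 and Cxcl10. At day 12 there were 105 Ccr2 UMIs per 100 UMIs of Ly6c2 and Ms4a6c in chondrocytes and 106 in endothelial cells, against 114 in monocytes. Ccl6 on the same markers was at 99.7 in chondrocytes, 89.96 in tendon cells, 183.6 in fibroblasts and 77.9 in endothelial cells at day 12. Each was above the 65.6 in monocytes. At day 10 Ccl6 was at 40 in chondrocytes and 33.9 in endothelial cells, above the 30.8 in monocytes. Tendon cells at 23.6 and fibroblasts at 24.7 were below it on that day. For Ccl9 the counts per 100 UMIs of Acp5, Ctsk and Mmp9 at day 12 were 11.4 in chondrocytes and 11.6 in endothelial cells, against 10.6 in osteoclasts. Ccr2 was at 125.7 in tendon cells and 124.6 in fibroblasts on that day. Ccl9 was at 5.27 in tendon cells and 8.15 in fibroblasts, below osteoclasts, and at day 10 it was at 3.75 in chondrocytes and 1.56 in tendon cells, against 7.85 in osteoclasts. Ccr2 at day 10 was at 33.8 in chondrocytes, 34.8 in tendon cells, 54.6 in fibroblasts and 56.5 in endothelial cells, against 58.2 in monocytes. Ccl7 differed at the early days: per 100 UMIs of C1qa, C1qb and C1qc it had 587.5, 143.7, 17.9 and 1.81 UMIs in chondrocytes and 1440, 1698, 176.1 and 140 in fibroblasts at days 7, 8, 10 and 12, against 13.6, 18.2, 8.74 and 2.85 in macrophages. Cx3cr1 had 309.4, 95.3, 152.4 and 45.2 UMIs on that measure in chondrocytes, against 5.50, 8.69, 6.47 and 8.16 in macrophages. Its chondrocyte ratio was thus above the macrophage ratio on every day. The same held for Cx3cr1 in tendon, fibroblast and endothelial cells, with 82.8, 71.7 and 66.1 at day 12. It also held on every day for Cxcl2, Ccl3, Ccl4 and Cxcl10 in chondrocytes, so it was not particular to Cx3cr1 or to chondrocytes. Cx3cr1 overlaps the annotated gene Gm33858 in RefSeq, and strand use in counting is not stated. After thinning to 1000 UMIs, 2.36% of chondrocyte-gate cells had a Cx3cr1 UMI at day 7, against 14.9% of macrophage-gate cells, and the unthinned shares were 6.14% and 52.2% at median depths of 3099.5 and 8170 UMIs.

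Blood gates with enough cells only at the later days were compared between days 12 and 10. Monocytes had 4 of 20 members higher at day 12, against 6.1% of genes, and 5 lower, against 12.7%. Ccr2, Ccl6 and Ccl3 were 2.10-, 2.29- and 2.20-fold higher there, while Cxcl2 was 0.432-fold, Cxcl10 0.271-fold and Cxcl1 0.0536-fold. Ptprc in the monocyte gate was 1287 CPM at day 12 and 584.7 CPM at day 10, and its part in these folds was not tested. Osteoclasts had 4 of 23 higher, against 6.07% of genes, and 5 lower, against 5.17%, among them Cxcl2 (26.6 CPM at day 12 and 74.9 CPM at day 10) and Ccr3. Cxcl16 and Ccl5 were higher in osteoclasts at day 12, and Ccl7 and Ccl4 lower. Dendritic cells had 3 of 23 higher, against 7.53% of genes, and 7 lower, against 3.87%. Ccl22 had 19.8 CPM at day 12 and 0.492 CPM at day 10 there, and Ccr7, the receptor of mature dendritic cells, had 18.4 and 1.48 CPM. Ccl24 had 16.8 CPM at day 12 and no UMI at day 10. The lower ones included Cxcl2, Ccl2, Ccl4 and Ccr9, and Cxcl9, Cxcl10 and Ccl17, whose day 10 levels came mostly from single cells.

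Neutrophils had 5 of 14 members higher at day 12 than at day 10, against 17.9% of genes, and 2 lower, against 2.17%. The lower ones were Cxcl2 (0.472-fold) and Cxcl10 (0.0951-fold), and the higher ones with the most UMIs were Ccl6, Ccr2, Ccl9 and Cxcl14. Mural cells had 3 of 17 higher, against 5.46% of genes, and 8 lower, against 3.31%. Cxcl1 had 11.2 CPM at day 12 and 57.4 CPM at day 10 in mural cells, Cx3cr1 11.2 and 33.0 CPM, and Ccl11 and Ccl2 were 0.447- and 0.449-fold. T, NK or innate lymphoid cells had 5 of 16 higher, against 12.1% of genes, and none lower, against 3.23%. Cxcl2, Ccl9 and Ccl6 were the counted ones with at least 50 UMIs, at 32.6, 46.8 and 45.7 CPM at day 12 and 9.58, 13.2 and 1.20 CPM at day 10. 

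Ccr2, Ccl6 and Ccl9 were also higher at day 12 than at day 10 in the osteoblast-lineage, reticular stromal, B-lineage and erythroid gates. Osteoblast-lineage cells had 12 of 19 members higher at day 12 than at day 10, against 7.63% of genes, and 3 lower, against 5.28%. Reticular stromal cells had 8 of 19 higher, against 7.41%, and 2 lower, against 4.88%. B-lineage cells had 7 of 22 higher, against 5.26%, and 2 lower, against 5.62%, and erythroid cells 9 of 26 higher, against 14.2%, and 6 lower, against 3.94%. Ccr2 had 38.9 CPM at day 12 and 5.72 CPM at day 10 in reticular stromal cells, 13.3 and 1.87 CPM in osteoblast-lineage cells, 23.6 and 11.4 CPM in B-lineage cells and 37.7 and 7.99 CPM in erythroid cells. Ccl9 had 48.3 and 17.2 CPM, 21.6 and 4.55 CPM, 36.3 and 18.1 CPM, and 27.7 and 10.9 CPM in the same gates and order of days. In osteoblast-lineage cells Ccr1, Ccl3, Ccl5, Ccl2 and Cxcl2 were also higher, and Cx3cr1, with 8.25 CPM at day 12 and 21.4 CPM at day 10, was lower. Reticular stromal cells had 2.59 CPM of Cxcl1 at day 12 and 24.6 CPM at day 10, and 15.2 CPM of Cxcl9 at day 12 with no UMI at day 10, and Ccl24 and Ccl3 were higher there. In B-lineage cells Ccl5, Ccr1 and Ccr7 were also higher, and in erythroid cells Ccl5, Ccl3 and Cxcl14. Erythroid cells had 11.1 CPM of Ccl21a at day 12, of which 76 of 77 UMIs were in 1 cell, and Cxcl10, Ccl7, Cxcl1 and Ccr9 were lower there. Granulocyte progenitors had none of 15 members higher, against 5.91% of genes, and 4 lower, against 4.25%. Cxcl2 in these cells had 11.7 CPM at day 12 and 59.8 CPM at day 10, Cxcr2 had 2.70 and 14.0 CPM, and Ccl2 and Ccl4 were 0.448- and 0.481-fold. Stem and progenitor cells had 5 of 11 higher, against 5.19% of genes, and 1 lower, against 6.38%.

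Side by side, textbook ligand and receptor pairs had their leading gates in 3 arrangements. Ccl9 and its receptor Ccr1 were both highest in osteoclasts, at means of 1524 and 262.0 CPM. Ligand and receptor led in neighbouring gates of the myeloid or lymphoid compartments for Ccl2 in macrophages (613.4 CPM) with Ccr2 in dendritic cells, Cxcl16 in macrophages (182.1 CPM) with Cxcr6 in T, NK or innate lymphoid cells (89.2 CPM), and Xcl1 in T, NK or innate lymphoid cells (261.8 CPM) with Xcr1 in dendritic cells (80.5 CPM). A stromal or vascular ligand faced a blood-cell receptor for Cxcl1 in mural cells (340.4 CPM) with Cxcr2 in neutrophils (107.3 CPM), Cx3cl1 in reticular stromal cells (24.0 CPM) with Cx3cr1 in macrophages (329.3 CPM), Ccl11 in mural cells (44.8 CPM) with Ccr3 in osteoclasts (36.1 CPM), and Ccl21a in endothelial cells (77.1 CPM) with Ccr7 in B-lineage cells. Each mean covers only the libraries with at least 50 cells of that gate, so the means of a pair can cover different days. The mural Cxcl1 mean was carried by day 8, at 952.7 CPM, when only 12 cells passed the neutrophil gate. The neutrophil Cxcr2 mean covers days 10 and 12 only, and mural Cxcl1 was at 11.2 CPM at day 12. Without day 8, fibroblasts led for Cxcl1 and monocytes for Ccr2. These are levels of transcripts set side by side, and no interaction was measured.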

How the data were processed

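Per the labels' protocols, cells were captured in droplets and read from the 3' end, and the files as deposited by the authors hold raw UMI counts per gene and barcode, not normalised, for 55416 features. The genome build is GRCm39 per the submitters' processing notes, and no source used here names the counting tool, the annotation or the barcode calling. Cells with at least 500 genes, 1000 UMIs and at most 15% mitochondrial UMIs were kept. A marker was positive in a cell with at least 1 UMI and a level, in UMIs per 10000, of at least 20% of that gene's 99th percentile over all kept cells. A cell joined the class whose marker list had the highest positive share, given at least 3 positive markers, and ties stayed ungated. This gate rule was set after the data were seen. No doublet caller was run, and an alternative leaves out the 6% of cells with the most UMIs. UMIs were summed by library and gate, scaled to CPM with exact Poisson 95% intervals, and fold changes had 1 UMI added to each sum; shares of cells have exact Clopper-Pearson intervals. No p-value is given, since each day is 1 library. Folds against a sum of 0 UMIs were bounded with a floor of 3 UMIs. UMIs are counted per transcript tag, so intervals and floors cover counting error only. Further members that overlap another gene in RefSeq include Cxcl10 (Art3), Cxcl16 (Zmynd15), Cxcr6 (Fyco1) and Ccl25 (LOC108167518). The summing and the fold changes were tested on simulated data. Members and lists were chosen with earlier results of these data known. 1 member is counted but not reported here by name. Every other member with at least 100 UMIs is named with its leading gate, and values in each library are given for the other 19 of the 20 most counted members, the 5 largest and 5 smallest ratios of day 12 to day 7, and up to 8 members past 2-fold with at least 50 UMIs in a gate. Members with 1 to 99 UMIs are summarised by count and range. The lists were atypical receptors, platelet ligands, the excluded pair, receptor signalling, NF-kB and inducers, interferon inducers, dissociation stress and hemoglobin. The alternatives covered the cell filter, scaling, UMI minimum, fold, added UMI, gates, left-out cells and baseline day. Python 3.11.15, numpy 2.4.6, scipy 1.17.1, pandas 2.3.3 and matplotlib 3.10.9 were used.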

Additional observations from a re-analysis of the deposited data

Results flagged for a closer look

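Ccl3 and Ccl4, neighbouring genes for attractants of monocytes and T cells, moved in opposite directions in 2 cell types between days 12 and 7. In endothelial cells Ccl3 had 59.5 CPM at day 12 and 8.16 CPM at day 7, a ratio of 5.49 that rests on 3 UMIs at day 7. In macrophages it had 196.9 CPM at day 12 and 440.3 CPM at day 7, a ratio of 0.446. Ccl4 had 27.2 CPM at day 12 and no UMI at day 7 in 52 endothelial cells, a fitted ratio of 10.1 that depends on the UMI added and is at least 3.33-fold against a floor of 3 UMIs. In macrophages its ratio was 0.116. These differences between gates were not tested. Ptprc in the endothelial gate was 91.4 CPM at day 12 and 0 CPM at day 7, and its part in the difference was not tested.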

How the results depend on the processing

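Of 796 recomputed values of the 76 fold changes given by gate or library, 674 stayed within the counting interval, 113 left it in the same direction and 9 reversed. With day 8 in place of day 7, the ratio was 0.141 for Ccl21a, 0.423 for Ccl22 and 0.576 for Ccl8 in whole libraries, 0.225 for Cxcl2 in tendon cells, and 0.0647 for Ccl21a and 1.29 for Ccl5 in endothelial cells, and 11 members in place of 19 were higher in whole libraries. Averaging over cells gave Cxcl3 a ratio of 1.05 in whole libraries and 3 lower members in place of 5 in tendon cells. Without the 6% of cells with the most UMIs, Ccl12 was at 2.35, and with gates on thinned cells Cx3cr1 in tendon cells was at 1.61. Apart from the changed baseline, the cause was not tested. With no minimum of UMIs, 14 members in place of 7 were higher in chondrocytes, and lower members numbered 41 in place of 5 in tendon cells, 38 in place of 6 in fibroblasts, 37 in place of 4 in endothelial cells and 37 in place of 9 in macrophages, since members with no UMI then take their ratio from the UMI added. Higher members in macrophages were 4 at a fold of 1.5, 4 with thinned gates and 1 without cells passing markers of a further class, in place of 2. The leading gate was the same in every setting for 23 of 43 members. Ccl3 and Ccl4 lost the mast cell or basophil gate with 4 markers, with thinned gates, without cells of a further class and without day 12. Ccr2 led in monocytes with 4 markers or without day 8, Cxcl10 in macrophages when averaged over cells, and Cxcl1 in fibroblasts without day 8. Leaving out barcodes shared between libraries was added after the data were seen. No paired analysis was possible because each day is 1 library with no replicate. At day 7 only 52 endothelial, 67 macrophage, 119 tendon and 121 fibroblast cells passed their gates, so 0 UMIs there allows up to 8.16 CPM in endothelial, 7.13 CPM in tendon and 6.78 CPM in fibroblast cells.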
